A study of Mus musculus with 4 samples.

Results

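The Hox genes are the homeobox genes of the Hoxa, Hoxb, Hoxc and Hoxd clusters, taken here as every row of the count files whose symbol is 1 of those names followed by digits only. The rule found 39 genes among the 23366 gene symbols of the files: 11 in Hoxa, 10 in Hoxb, 9 in Hoxc and 9 in Hoxd. Polyadenylated RNA was sequenced from R1 cells, an embryonic stem cell line from mice of 129X1 x 129S1 origin, kept on gelatin in medium with serum, serum replacement and LIF, the cytokine that sustains self-renewal. Both groups received the vector pSicoR-Ef1a-mCh-Puro with a short hairpin RNA, and cells that took it up were selected with puromycin or sorted. In 2 control libraries the hairpin targeted nothing, and in 2 knockdown libraries it targeted Cyrano, a long noncoding RNA with a site for the microRNA miR-7. The sources used here do not give the selection method or the RNA kit, of 2 named, for each library. The library method marks strand.

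Hox genes encode homeodomain transcription factors that give cells their position along the head-to-tail axis. They lie in clusters in which the genes at the 3′ end (low paralog numbers) are switched on early and in anterior tissue, and those at the 5′ end (high numbers) late and in posterior tissue, limbs and genitalia. In embryonic stem cells the clusters are a textbook example of Polycomb silencing, and retinoic acid, Wnt signals and Cdx factors open them during differentiation. The comparison therefore asked how silent each cluster was in these cultures, and whether any member differed once Cyrano was lowered.

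The gene counts summed to 16854403 and 19138196 in the controls and to 22321102 and 20761783 in the knockdown libraries, which were both deeper. Cyrano, listed as 1700020I14Rik, had 24.7 and 15.1 CPM (CPM being counts scaled to library size) in the controls and 3.98 and 3.16 CPM in the knockdown libraries, so the groups did not overlap, as labelled (log2 fold change -2.48 ± 0.30 SE, edgeR adjusted p = 0.0070). All 12 stem cell markers lay above 1 CPM, with Esrrb at a mean of 1014 CPM, Pou5f1 at 963 CPM and Tdh at 836 CPM. Nanog had 216 and 228 CPM in the controls and 129 and 133 CPM after knockdown (log2 fold change -0.76 ± 0.14 SE, edgeR adjusted p = 0.070). Sox2 had 402 and 412 CPM in the controls and 487 and 435 CPM after knockdown (0.18 ± 0.14, adjusted p = 0.66). Of the 12 markers, 6 had a log2 fold change above 0 and 6 below, and none had an adjusted p under 0.05. Replicates of a group differed far beyond sampling noise, with a chi-square over its degrees of freedom of 25.4 between the controls and 20.5 between the knockdown libraries. Abundant genes weigh most in these values, which say little about genes as low as the Hox genes. P-values cover only the variation among these 4 libraries, since the labels do not say how the cultures were separated.

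Hox promoters are rich in CpG dinucleotides, the sequence feature on which Polycomb complexes gather. RefSeq promoters of build GRCm38.p6 were on hand for 22 of the 39 genes, and the start with the most CpGs was used for each. In the 250 bases before the start, CG occurred a median of 13 times, with a range from 3 in Hoxa9 and Hoxd4 to 35 in Hoxa13. Promoters of all genes held a median of 6. At least 10 CG were present in 68.2% of the Hox promoters and in 40.2% of the 27025 promoters counted in this way. The 120 bases before the start are shown for 4 genes that span the range of levels among the 22 Hox genes. Hoxd13 was the most abundant member with a promoter sequence. Hoxb4 had 75 reads over the 4 libraries, Hoxa13 had 25 reads and Hoxa6 had none. Sequences run 5′ to 3′ on the gene's strand, and capitals mark each CG.

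Hoxd13 (chr2:74668105-74668224, plus strand): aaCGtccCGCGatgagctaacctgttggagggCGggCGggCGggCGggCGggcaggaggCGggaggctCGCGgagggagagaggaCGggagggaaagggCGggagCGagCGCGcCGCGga

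Hoxb4 (chr11:96318147-96318266, plus strand): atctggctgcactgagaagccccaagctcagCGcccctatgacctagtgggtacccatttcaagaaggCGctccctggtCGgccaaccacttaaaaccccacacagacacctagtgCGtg

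Hoxa13 (chr6:52260881-52261000, minus strand): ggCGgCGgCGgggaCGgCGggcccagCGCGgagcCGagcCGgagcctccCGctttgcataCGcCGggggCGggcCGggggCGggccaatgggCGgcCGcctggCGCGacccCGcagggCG

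Hoxa6 (chr6:52208673-52208792, minus strand): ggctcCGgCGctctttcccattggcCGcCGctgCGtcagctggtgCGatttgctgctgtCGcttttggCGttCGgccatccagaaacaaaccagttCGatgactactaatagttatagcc

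The stretch of Hoxd13, which controls digit and genital development, held 18 CG, that of Hoxb4 held 4, that of Hoxa13 held 21 and that of Hoxa6 held 10. CpG content alone did not order the genes by level, since the promoter of Hoxa6, with 24 CG in 250 bases and no read, was richer than that of Hoxb4, with 14. Over the 13 promoters of genes with at least 10 reads the median was 18 CG, and over the 9 of genes with fewer reads it was 10. Hoxc13, Hoxb9 and Hoxb13, all more abundant than Hoxd13, had no promoter sequence on hand and are missing from these medians. These are descriptions of the windows, and no binding or methylation was measured.

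Most Hox genes were silent or close to it, and values within a gene are given in CPM. Together the 39 genes took between 0.00125% and 0.00230% of the counts of a library, 215 and 314 reads in the controls and 280 and 478 reads after knockdown. No read in any library was found for 3 genes, Hoxa6, Hoxb6 and Hoxc8, which are axial genes of the trunk. A count of 0 allows up to 3 reads, or 0.182 CPM in the shallowest library. Another 14 genes had a mean under 0.1 CPM, 17 lay from 0.1 to under 1 CPM, and 5 reached 1 CPM. By comparison 51.8% of all symbols reached 1 CPM, against 12.8% of the Hox genes. The threshold of 1 CPM is a convention: 8 genes passed at 0.5 CPM and 2 at 2 CPM.

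**Figure D1:**
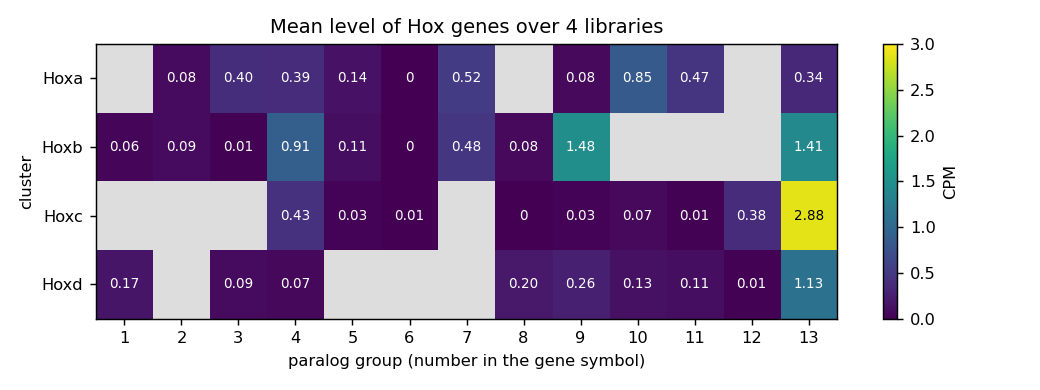
Mean level in CPM over the 4 libraries of 38 Hox genes, with clusters as rows, paralog groups as columns, and grey where no value is shown. The brightest field is Hoxc13 at 2.88 CPM, and the middle columns are dark, with Hoxa6, Hoxb6 and Hoxc8 at 0.

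The 3 members with the most reads held 40.6% of all Hox reads, and 20 of the 39 genes had at least 10 reads. Hoxc13, a gene of hair and nail development at the 5′ end of its cluster, held 74.8% of the Hoxc reads. In Hoxd, 50.3% of the reads belonged to Hoxd13 at the 5′ end. Hoxb reads were spread over Hoxb9, Hoxb13 and Hoxb4, which together held 82.5%.

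These are shares of reads, not corrected for length, over transcripts of 874 to 3367 bases. Grouped along the axis, paralog groups 9 to 13 (16 genes) summed to a mean of 9.65 CPM, groups 1 to 4 (12 genes) to 4.88 CPM, and groups 5 to 8 (11 genes) to 1.58 CPM. Paralog group 13 alone, the most posterior, summed to 5.76 CPM, and its 4 genes held 458 of the 1287 Hox reads. Paralog group 6 had 1 read in all, in Hoxc6. In each library the summed level was highest in groups 9 to 13 and lowest in groups 5 to 8: the former ranged from 7.97 to 12.3 CPM over the libraries and the latter from 1.03 to 2.14 CPM.

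Per kb of transcript the picture was similar. On the FPKM scale, which divides CPM by the length of the longest annotated transcript, the median mean level of the Hox genes was 0.0741. Hoxc13 led at 1.17 FPKM, and levels further down were those of Hoxb13 at 0.639, Hoxb9 at 0.577 and Hoxd13 at 0.454 FPKM. Hoxb9 lay above Hoxb13 in both controls (0.425 against 0.276 and 0.514 against 0.456 FPKM) and below it in both knockdown libraries (0.591 against 0.731 and 0.776 against 1.09 FPKM). Hoxb9 and Hoxd13 were also not in 1 order in all libraries. Hoxa13, at 0.143 FPKM, was the lowest of the 4 genes of paralog group 13. Hoxc13 had 0.889 and 1.40 FPKM in the controls and 0.710 and 1.68 FPKM after knockdown.

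Most genes around the clusters were expressed. Of 21 listed coding genes around them, 18 reached 1 CPM, with a median of 11.3 FPKM over the 21. Those under 1 CPM were Skap1 and Ttll6, near Hoxb, at means of 0.09 and 0.84 CPM, and Evx2. Beyond Hoxa lie Skap2, an adaptor protein gene at 11.3 FPKM, and Hibadh, a mitochondrial dehydrogenase gene at 42.6 CPM. Beyond Hoxd lies Mtx2, which encodes a mitochondrial import protein, at 16.9 FPKM. Near Hoxc, Cbx5, the gene of the heterochromatin protein HP1 alpha, had 21.6 FPKM. Atp5g3, a mitochondrial ATP synthase gene near Hoxd, had the lowest adjusted p around the clusters, with 850 and 853 CPM in the controls and 1400 and 1575 CPM after knockdown (log2 fold change 0.80 ± 0.14 SE, edgeR adjusted p = 0.063). The homeobox genes at the 5′ ends were low too: Evx1, next to Hoxa13, had 1.14 CPM or 0.398 FPKM, and Evx2, next to Hoxd13, had no read. Other homeobox genes were mostly low, with a median of 0.147 FPKM over 104 genes and 28.8% of them at 1 CPM. EdgeR gave an unadjusted p under 0.05 to 14 of 52 tested other homeobox genes, 6 higher and 8 lower after knockdown. Among 19 tested flanking genes it did so for 5, with 3 higher and 2 lower. The share over all genes tested was 11.6%, and no gene of either list had an adjusted p under 0.05. No read was found for 7.69% of the Hox genes, 3.85% of the other homeobox genes, 27.2% of all symbols, 41.0% of 39 genes of differentiated tissues and 98.4% of 1102 olfactory receptor genes. These shares without a read were not tested against each other. Olfactory receptor genes were chosen after the counts were seen.

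**Figure D2:**
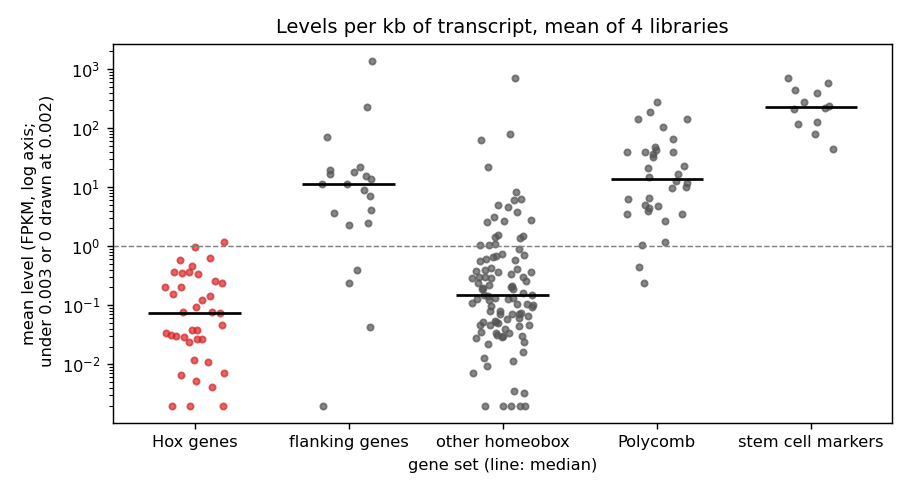
Mean level over 4 libraries in FPKM on a log axis, with 1 point for each gene and a line at each set's median. Hox genes have a median of 0.0741 with 1 gene above the dashed line at 1 FPKM, while flanking genes have a median of 11.3, Polycomb genes 13.7 and stem cell markers 225.

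Noncoding genes inside the clusters were mostly empty as well. By their order in RefSeq, 12 noncoding symbols of the files lie within the Hox clusters, 6 of them microRNA genes, and 8 of the 12 had no read. The latter include Hotair, a noncoding RNA of the Hoxc cluster known for its link to Polycomb, and Mir10a and Mir10b, whose short products poly(A) selection does not capture. Gm53, a noncoding RNA between Hoxb13 and Hoxb9, was the exception at 2.62 and 4.45 CPM in the controls and 5.82 and 4.04 CPM after knockdown. Its mean of 1.30 FPKM lay above that of each Hoxb gene. Its groups overlapped (log2 fold change 0.48 ± 0.38 SE, edgeR adjusted p = 0.67). Mira had 4, 5, 3 and 15 reads, Mir196a-1 had 4, 5, 2 and 15, and Hoxa11as, antisense to Hoxa11, had 1, 12, 0 and 1 (control 1, control 2, knockdown 1 and knockdown 2).

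The sources used here do not say whether the counting took account of strand. Many Hox genes overlap an antisense RNA or a long isoform of a neighbour, such as Hoxa11 with Hoxa11as, and Hoxb3 with Hoxb4. Reads at such places may belong to the partner or may have been dropped as ambiguous, so single values for these genes are uncertain.

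In Hoxa, the groups overlapped for Hoxa3, Hoxa7 and Hoxa10. Hoxa10, needed in the uterus and the lumbar spine, had 14 and 18 reads in the controls, and 11 and 24 after knockdown (log2 fold change -0.17 ± 0.70 SE, edgeR adjusted p = 0.96). Hoxa7, a thoracic gene, had 8 and 15 reads in the controls and 0 and 17 after knockdown (-0.71 ± 1.13, adjusted p = 0.86). Hoxa3, required for the thymus and parathyroid, had 6 and 11 reads against 3 and 11 (-0.56 ± 0.96, adjusted p = 0.87). None of these signs was stable: Hoxa3, Hoxa7 and Hoxa10 stood at 0.092, 0.28 and 0.29 without knockdown 1.

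The Hoxa genes that follow were too low for the test. Hoxa13, which shapes digits and the genital tract, was lower after knockdown in both libraries, with 11 and 9 reads in the controls and 5 and 0 after knockdown. Hoxa11, a kidney and forearm gene, had 8, 7, 8 and 14 reads, and Hoxa4 had 2, 5, 4 and 21. Of 11 reads of Hoxa5, a lung development gene, 10 were in control 2 and 1 in knockdown 2. Hoxa2 had 7 reads and Hoxa9 had 6. The high value in Hoxa4 came from knockdown 2 alone.

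In each of the 3 tested Hoxb genes both knockdown libraries lay above both controls, while groups that stay apart, in either direction, were present in 43.5% of all genes tested. The filter on low counts asked for about 10 reads at median depth in any 2 libraries. Hoxb4, with 8 reads in control 1, would not have met it in the controls alone. Its place among the tested genes thus rests partly on its knockdown values. Hoxb13, a posterior gene of the tail and the prostate, had 10 and 19 reads in the controls, and 36 and 52 reads after knockdown. In CPM this was 0.608 and 1.01 against 1.61 and 2.41, so both knockdown libraries lay above both controls. Its fitted log2 fold change was 1.30 ± 0.58 SE, and edgeR put the unadjusted p at 0.045 and the adjusted p at 0.42, so the gene was not called. The log2 fold change was 0.99 without control 1, 1.71 without control 2, 1.56 without knockdown 1 and 0.99 without knockdown 2. Each of these fits leaves 1 library in a group, so only the size of the change is given.

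Hoxb4, known for expanding blood stem cells when overexpressed, had 8 and 13 reads in the controls and 24 and 30 after knockdown (0.587 ± 0.143 against 1.23 ± 0.225 CPM, SD, n = 2 each). Its groups did not overlap either (log2 fold change 1.05 ± 0.67 SE, edgeR adjusted p = 0.57). Hoxb9, a gene of rib and mammary development, had 18, 25, 34 and 43 reads, again without overlap (0.54 ± 0.54, adjusted p = 0.74). Hoxb7 showed no such order, with 8, 8, 6 and 16 reads. The remaining Hoxb genes with reads were Hoxb5 with 9 in all, Hoxb2 and Hoxb8 with 7 each, Hoxb1 with 4, found in the controls alone, and Hoxb3 with 1. Gm53, which lies beside Hoxb9 and Hoxb13, had both knockdown libraries above control 1 and only knockdown 1 above control 2.

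In Hoxc, Hoxc13 was the most abundant Hox gene of all, with 36 and 65 reads in the controls and 39 and 89 after knockdown (2.19, 3.44, 1.75 and 4.13 CPM). Both replicate 2 libraries were high and both replicate 1 libraries low (log2 fold change 0.06 ± 0.48 SE, edgeR adjusted p = 0.98), and the sign turned without control 1 (-0.23) or knockdown 2 (-0.69). Hoxc4 had 5, 9, 2 and 18 reads in the same order, and Hoxc12 had 8, 3, 9 and 10. The other Hoxc genes were nearly empty: Hoxc10 had 6 reads, Hoxc5 had 3, Hoxc9 had 2, and Hoxc6 and Hoxc11 had 1 each.

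Hoxd held the fewest reads, 173 over the 4 libraries. Hoxd13 had 25 and 23 reads in the controls and 25 and 14 after knockdown. In CPM that was 1.52 and 1.22 against 1.12 and 0.650, with both knockdown libraries below both controls (log2 fold change -0.62 ± 0.62 SE, edgeR adjusted p = 0.74). Hoxd8 had 1, 4, 6 and 6 reads, Hoxd9 had 7, 3, 5 and 5, Hoxd1 had 1, 5, 3 and 5, and Hoxd10 had 1, 2, 0 and 8. Under 10 reads were found for Hoxd11 with 9, Hoxd3 with 8, Hoxd4 with 6 and Hoxd12 with 1.

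**Figure D3:**
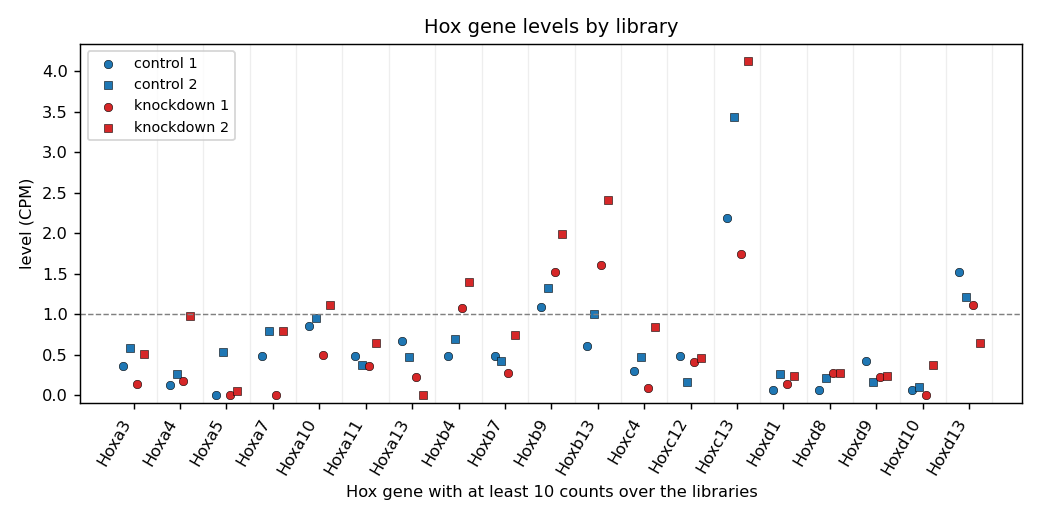
Level in CPM of 19 Hox genes with at least 10 reads, with controls in blue and knockdown libraries in red, circles for replicate 1 and squares for replicate 2. Knockdown lies above control in Hoxb4, Hoxb9, Hoxb13 and Hoxd8 and below it in Hoxa13 and Hoxd13, while Hoxc13 is highest in knockdown 2.

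No Hox gene passed the test of knockdown against control. The filter on low counts left 9 of the 39 genes, and edgeR called 0 of these at an adjusted p under 0.05, where it called 0.0833% of all 13199 genes tested. Adjusted p values ran from 0.42 for Hoxb13 to 0.98 for Hoxc13. At an unadjusted p under 0.05 there was 1 of 9, Hoxb13, beside 11.6% of all genes tested. The groups stayed apart in 4 of the 9, beside 43.5% of all genes tested, so the members' share was near the background. Limma-voom called 0 of the 9 with none at an unadjusted p under 0.05, and DESeq2 gave none of the Hox genes an adjusted p. The median log2 fold change was 0.06 over the 9 genes and -0.0016 over all genes tested. Standard errors ran from 0.48 to 1.13 on the log2 scale.

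**Figure D4:**
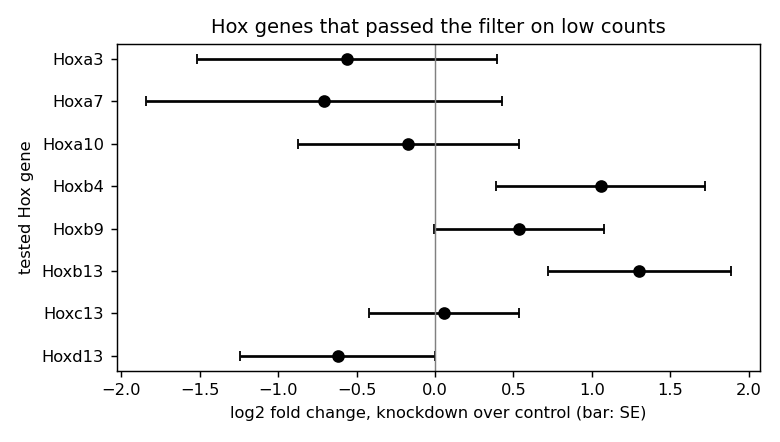
Log2 fold change of knockdown over control from edgeR, with bars of 1 SE, for 8 Hox genes that passed the filter on low counts. The point of Hoxb13 lies at 1.30 and that of Hoxb4 at 1.05, and the bars of Hoxa3, Hoxa7, Hoxa10, Hoxb9, Hoxc13 and Hoxd13 reach or nearly reach 0.

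Levels were also summed over all members of each cluster, with no filter. Hoxa summed to 5.11 and 5.82 CPM in the controls and 2.82 and 8.03 after knockdown, so the knockdown libraries lay on either side of the controls. Hoxb summed to 2.80 and 4.02 CPM in the controls and to 4.84 and 6.87 CPM after knockdown. The ratio of means was 1.72, with both knockdown libraries above both controls. Most of this sum repeats the 3 tested genes, since Hoxb9, Hoxb13 and Hoxb4 held 82.5% of the Hoxb reads. Hoxb7, outside these 3, had groups that overlapped. Hoxc had 2.98 and 4.39 CPM against 2.51 and 5.48 CPM, and Hoxd 2.19 and 2.38 against 2.37 and 1.81 CPM. Exact permutation tests over libraries, run on both sides, gave p = 1 for Hoxa and Hoxc, p = 0.667 for Hoxd and p = 0.333 for Hoxb, and no split of 2 against 2 goes below that last value. The tests over 4 clusters could therefore not reach 0.05, before or after adjustment. The ratio of Hoxb ranged from 1.42 without knockdown 2 to 2.09 without control 2. It was 1.86 without Hoxb9, a sum that still held Hoxb4 and Hoxb13, and was not computed without all 3 genes. Without 1 library the ratio ranged from 0.516 to 1.47 for Hoxa, from 0.680 to 1.49 for Hoxc and from 0.792 to 1.04 for Hoxd, on both sides of 1. Whether Hoxb differed from the other clusters was not tested.

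**Figure D5:**
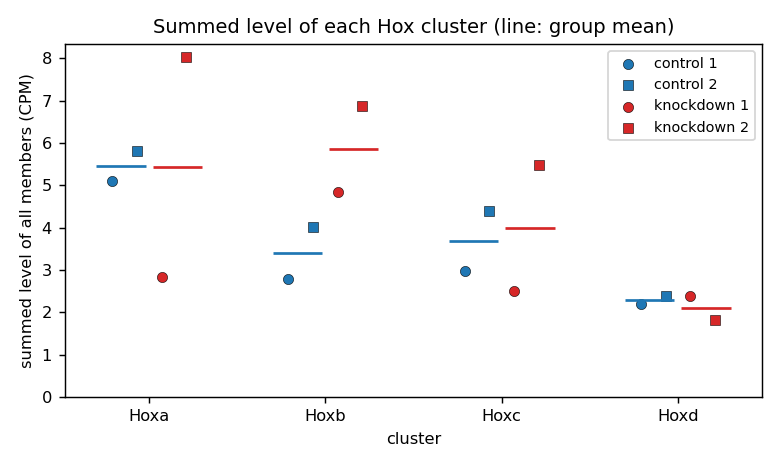
Summed level in CPM of all members of each cluster, with 1 point for each library, controls in blue and knockdown in red, and lines at the group means. Knockdown points lie above both controls in Hoxb, at 4.84 and 6.87 CPM, and on either side of them in Hoxa and Hoxc.

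Replicate 2 libraries held more Hox RNA than replicate 1 libraries in both groups. The level was higher in control 2 than in control 1 for 25 genes and lower for 9, and higher in knockdown 2 than in knockdown 1 for 22 and lower for 9. A read was found for 22 and 33 members in the controls, and for 25 in each knockdown library. Over all symbols a read was found for 15227 and 16046 in the controls and for 15533 and 15171 after knockdown. Shares of all genes higher in replicate 2 were not counted, so whether this order is particular to Hox genes was not tested. Fewer cells that express a gene and less RNA per cell cannot be told apart in such bulk RNA.

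Fibroblasts express many Hox genes and often serve as feeder cells, so their markers were read in the same libraries. Of 16 fibroblast markers, 5 had no read: the matrix genes Col3a1, Postn, Dcn and Lum, and Fap. The mesenchymal transcription factor genes Prrx1 and Twist2 had 1 and 3 reads. In the same list 7 of 16 reached 1 CPM, among them Thy1, a surface protein gene, at a mean of 31.98 CPM and the collagen gene Col5a1 at 24.8 CPM. Twist1 had 2.43 and 5.29 CPM in the controls and 6.80 and 8.03 CPM after knockdown (log2 fold change 0.93 ± 0.38 SE, edgeR adjusted p = 0.36). The summed level of the list, most of it Fn1, was 704 to 1082 CPM in the controls and 839 to 1102 CPM after knockdown. Endoderm markers summed to 412 to 548 CPM in the controls and 570 to 633 CPM after knockdown. Most of this sum was Lama1, at a mean of 389 CPM. Of 10 endoderm markers tested 9 lay above 0, with a median log2 fold change of 0.53. The median over all genes tested was -0.0016. None of these 10 markers was called by edgeR, Pdgfra having the lowest adjusted p at 0.093. An unadjusted p under 0.05 was found for 6 of the 10, beside 11.6% of all genes tested. Of these 6, 5 were higher and Hnf4a was lower (log2 fold change -1.09 ± 0.40 SE). Mesoderm, neural and trophectoderm markers had median log2 fold changes of -0.13, 0.03 and -0.04. In these lists edgeR gave an unadjusted p under 0.05 to 2 of 8, 3 of 6 and 0 of 8 tested markers, and called none. The part of these markers in the Hox levels was not tested.

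No gene of the lists that act with or upstream of the Hox genes was called. Beside the list medians below, the median log2 fold change over all genes tested was -0.0016. At least 1 CPM was reached by all 12 cofactor genes, 6 of 12 inducers, 17 of 21 retinoic acid genes, all 34 Polycomb genes and all 18 Trithorax genes. Among 12 genes of TALE cofactors, homeodomain proteins that bind DNA beside HOX proteins, and their relatives, all 12 were tested, 3 had a log2 fold change above 0 and 9 below, and the median was -0.20. Meis1 stood at 1.46 and 2.06 CPM in the controls and 3.49 and 4.27 after knockdown (1.13 ± 0.42 SE, edgeR adjusted p = 0.33). Pbx3 stood at 3.47 and 6.35 against 9.04 and 9.61 CPM (0.92 ± 0.33, adjusted p = 0.31). Pknox2 went the other way, with 4.01 and 4.45 against 2.10 and 0.743 CPM (-1.56 ± 0.50, adjusted p = 0.24). These 3 of the 12 were the members at an unadjusted p under 0.05, beside 11.6% of all genes tested.

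Of 12 listed inducers of Hox genes 8 were tested, 3 above 0 and 5 below. The caudal gene Cdx1 was present at 10.5 and 12.5 CPM in the controls and 19.2 and 15.4 CPM after knockdown (log2 fold change 0.58 ± 0.24 SE, edgeR adjusted p = 0.36). Cdx2 and Cdx4 lay at means of 0.671 and 0.238 CPM, and T, the primitive streak gene, at 0.408 CPM. In the retinoic acid list 17 of 21 genes were tested, 5 above 0 and 12 below, with a median of -0.15. The receptor genes Rarg and Rara were abundant, at means of 286 and 110 CPM. Rarb, a direct retinoic acid target, had a mean of 0.182 CPM, whereas Stra8, also a retinoic acid target, had a mean of 17.5 CPM. Cyp26a1, which encodes the enzyme that clears retinoic acid, had 0.669 and 1.27 CPM in the controls and 0.627 and 2.37 CPM after knockdown, the highest value being in knockdown 2.

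The silencing machinery was abundant in every library. All 34 Polycomb genes of the list were tested, with 19 above 0, 15 below and a median log2 fold change of 0.02. Their summed level was 4795 to 4799 CPM in the controls and 4746 to 5132 CPM after knockdown. Eed, a core subunit of Polycomb repressive complex 2, was the only member at an unadjusted p under 0.05, with 307 and 319 CPM in the controls and 506 and 401 CPM after knockdown (0.53 ± 0.15 SE, edgeR adjusted p = 0.20). Of the 18 Trithorax group and demethylase genes, which counter Polycomb, 2 lay above 0 and 16 below, with a median of -0.13. Dpy30 and Ash2l, subunits shared by H3K4 methyltransferases, were the 2 above, at 0.60 ± 0.15 and 0.38 ± 0.14 (edgeR adjusted p = 0.17 and 0.32). Among those below, Kat6a, a histone acetyltransferase gene, had the only unadjusted p under 0.05, at -0.41 ± 0.18 (edgeR adjusted p = 0.41). An unadjusted p under 0.05 was found for 1 of 34 Polycomb and 3 of 18 Trithorax genes, beside 11.6% of all genes tested.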

How the data were processed

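Raw read counts for each gene symbol, as deposited by the authors in 1 file per library, were made with TopHat, HTSeq, SAMtools and bedtools on build mm9, per the submitters' processing notes. The sources used here state no version, annotation or strand setting. The 5 closing tallies name no gene and were left out; reads without a unique alignment, left out of the authors' counts, made up 26.1% to 32.8% of tallied reads. Groups and replicate numbers came from the sample titles.

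Tests used edgeR 4.0.16 under R 4.3.3 (filterByExpr with a minimum count of 10, TMM factors, robust glmQLFit, glmQLFTest, group as the only term, two-sided), adjusted by Benjamini-Hochberg over all genes at 0.05. The SE is the size of the log2 fold change divided by the root of its F statistic. CPM used TMM-scaled library sizes, and FPKM the longest GENCODE M21 transcript of the symbol (98.4% of symbols matched). GENCODE M21 and RefSeq are on GRCm38, not the files' build, and served for lengths, gene order and promoters only. Cluster sums were compared by exact permutation over libraries. DESeq2 1.42.0, limma-voom (limma 3.58.1), other factors and filters, left-out libraries and a replicate block were alternatives, and the fits were tested on simulated data. The floor of 3 reads covers counting error only.

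Members, gene lists and tests were chosen with earlier results of these data known. Hox genes with at least 10 reads are given by library and the others by their sum. One item is not reported here; counts and sums over the Hox genes include it. Of each other list, genes were named for the lowest p, the highest level or a role stated with them. Skap2, Hibadh, Mtx2, Skap1, Ttll6, Evx1, Evx2, Rarb, Stra8, Cyp26a1, Cdx2, Cdx4, T and the fibroblast markers were named after their values were seen.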

Additional observations from a re-analysis of the deposited data

Results flagged for a closer look

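Reads that fell where genes overlap enter no gene count, and Hox clusters hold many such places. They made up a mean of 0.584% of tallied reads in the knockdown libraries and 0.486% in the controls, a signal outside the gene counts. Both knockdown libraries (0.568% and 0.600%) lay above both controls (0.459% and 0.513%). Groups stayed apart, in either direction, in 43.5% of all genes tested. The tally covers all genes, with 130828 to 198138 reads per library. It does not say which genes the reads came from, so it gives no value for Hox genes.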

How the results depend on the processing

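No Hox gene was called under any of the alternatives in which members received an adjusted p; DESeq2 gave none to a Hox gene. The calls over all genes went from 11 to 3 with limma-voom, 6 with DESeq2's size factors in edgeR, 26 with upper-quartile factors, 50 with library size alone, 332 without the filter, 4 without robust fitting and 955 with the replicate block, and DESeq2 called 133. Leaving out 1 library gave 0 to 191. Under the replicate block Hoxb13 stood at 1.32 on the log2 scale (edgeR adjusted p = 0.18). Same-numbered libraries deviated together (r = 0.244), but with 2 pairs the numbers were not taken as pairing. Of 104 values of 8 single genes 97 kept their direction. The others turned without 1 library, except Hoxc13, which also stood at -0.061 with limma-voom and -0.0025 with the replicate block. Over the left-out libraries Hoxc13 ranged from -0.69 (without knockdown 2) to 0.54 (without knockdown 1), and was -0.23 without control 1. From the fit without knockdown 2 to that without knockdown 1, Hoxa3 went from -1.77 to 0.092, Hoxa7 from -6.64 to 0.28 and Hoxa10 from -0.86 to 0.29. The cause was not tested. The ratio of summed levels turned for Hoxa to 1.04 with library size alone and 1.02 in FPKM, and for Hoxd to 1.32 without Hoxd13. Without 1 library it ranged from 0.516 to 1.47 for Hoxa, 0.680 to 1.49 for Hoxc, 0.792 to 1.04 for Hoxd and 1.42 to 2.09 for Hoxb. The number of genes at the level minimum, 5, became 8 at 0.5 CPM, 2 at 2 CPM, 1 at 1 FPKM and 3 when 1 CPM was needed in every library; it stayed at 5 without any 1 library. In the lists of other genes, the replicate block called 1 flanking, 2 cofactor, 2 retinoic acid, 1 Polycomb, 4 Trithorax and 6 other homeobox genes, where the test as reported called 0. Without the filter on low counts 1 flanking, 1 cofactor, 1 Polycomb, 1 Trithorax and 3 other homeobox genes were called, and with library size alone 1 flanking and 1 other homeobox gene. Of the 39 members 19 had under 10 reads, and 30 were too low for the test.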
